A study of Rattus norvegicus with 58 samples.

Results

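The liver endothelial markers are a set of 8 genes, Stab2, Emcn, Pecam1, Lyve1, Kdr, Tek, Cdh5 and Vwf, that mark the cells lining hepatic sinusoids and larger liver vessels. A gene was taken where a probe set carried its symbol and no other in the platform annotation, and the probe set with the highest mean stood for the gene. By this rule 7 of the 8 markers were found, on 9 of the 31042 probe sets, among 14217 genes with such a probe set. No probe set carried the symbol of Cdh5, the endothelial cadherin of adherens junctions, so that gene has no value here. Lyve1 and Kdr had 2 probe sets each, and the second of each was used as a check.

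The samples were livers of male rats aged 17 weeks, taken after an overnight fast and hybridised to Affymetrix rat expression arrays. Of the 58 arrays, 23 came from heterogeneous stock (HS) rats with glucose intolerance, 23 from HS rats with normal glucose, and 2 from each of 6 inbred strains, named BN, WKY, ACI, F344, BUF and M520. The HS is an outbred stock descended from inbred founders, to which these strains belong, and the labels name no drug or engineered allele in any group. The glucose groups are rats of 1 stock that differed in glucose tolerance, not a treatment.

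Sinusoidal endothelial cells differ from other endothelium in having open pores and no continuous basement membrane, and they clear waste molecules from portal blood through scavenger receptors. Stab2 (stabilin-2) and Lyve1 are hyaluronan receptors, and Lyve1, known elsewhere as a lymphatic marker, is made by sinusoidal cells in the liver. Kdr is the main signalling receptor for vascular endothelial growth factor, and Tek (Tie2) is the receptor for the angiopoietins. Emcn (endomucin) is a sialomucin of the endothelial surface, and Pecam1 (CD31) is an adhesion molecule at endothelial contacts that is also made by platelets and some leukocytes. Vwf, the carrier of coagulation factor VIII, is stored in the endothelium of larger vessels and is sparse in normal sinusoids.

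Promoter sequence was at hand for 4 of the 7 genes found, Emcn, Lyve1, Stab2 and Kdr, from RefSeq on the GRCr8 assembly. It is shown because these are the surface genes whose levels the results turn on, and because endothelial promoters are known for ETS-family sites. Each run reads 5′ to 3′ on the strand of its gene and ends at the base before the annotated start. Capitals mark matches to AGGAAG, searched as the ETS site, or to the longer FOX-ETS composite AACAGGAA, on either strand. The runs are 250 bases for Emcn (chr2:228564289-228564538, plus strand) and the last 150 bases for Lyve1 (chr1:174410978-174411127, minus strand), Stab2 (chr7:23320563-23320712, minus strand) and Kdr (chr14:32571913-32572062, plus strand).
Emcn: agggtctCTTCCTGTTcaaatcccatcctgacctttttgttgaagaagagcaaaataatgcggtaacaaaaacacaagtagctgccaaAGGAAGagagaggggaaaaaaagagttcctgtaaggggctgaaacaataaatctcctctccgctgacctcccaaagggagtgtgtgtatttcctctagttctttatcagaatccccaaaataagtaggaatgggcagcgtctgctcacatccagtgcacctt
Lyve1: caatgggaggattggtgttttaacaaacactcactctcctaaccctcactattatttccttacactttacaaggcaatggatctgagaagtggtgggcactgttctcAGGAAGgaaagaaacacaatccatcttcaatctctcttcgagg
Stab2: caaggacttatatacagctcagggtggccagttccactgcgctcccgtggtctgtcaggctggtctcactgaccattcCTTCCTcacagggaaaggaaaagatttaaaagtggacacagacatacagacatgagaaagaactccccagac
Kdr: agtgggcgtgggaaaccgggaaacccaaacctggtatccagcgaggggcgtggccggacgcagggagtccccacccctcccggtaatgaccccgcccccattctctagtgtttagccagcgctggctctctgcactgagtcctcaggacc
AGGAAG was sought in a window from 250 bases before to 50 bases after the start. It was present in 3 of the 4 genes, against 34.5% of 33469 promoters of the same length. In Emcn it lay at -243 and at -162 from the start, and its minus-strand match overlaps the FOX-ETS composite at -242 to -235, a motif held by 2.6% of promoters. In Lyve1 it lay at -43, and in Stab2 at -72 on the minus strand. Kdr held neither AGGAAG nor AACAGGAA in this window, and shorter forms of an ETS site were not searched. The GATA factor letters AGATAA were in none of the 4 windows, against 11.6% of promoters. The letters ACAAAG, read by SOX factors, were likewise absent from these windows and held by 18.8% of promoters. The TATA box, searched as TATAAA, was absent from them and held by 14.2% of promoters. A match is a description of the letters and not a measured binding site.

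The array medians lay between 5.33 and 5.39 on the log2 scale, and no array repeated the values of another. The median Pearson correlation of an array with the others was lowest for BUF array 2 (0.9762) and WKY array 1 (0.9817), so BUF calls are given below with and without BUF array 2. The other strain arrays and all HS arrays lay above these, the HS arrays at 0.9834 to 0.9912. The 2 arrays of a strain correlated at 0.9894 (BUF) to 0.9965 (ACI). The labels number the strain arrays without saying that they are separate animals, so the p-values between strains measure the spread between these arrays, which may be technical. No read depth exists for arrays, and their number limits the precision. The files name no slide, scan date, cage or family.

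All 7 genes were above the median probe set mean. Their mean ranked at the 94.1 percentile of all probe sets for Lyve1 and Kdr, 87.6 for Stab2, 81.4 for Tek, 70.6 for Pecam1, 67.5 for Emcn and 64.8 for Vwf. The second Kdr probe set ranked at 28.6, so it served only as a weak check. Probe sets differ in binding, so these ranks are not levels of 1 gene against another.

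Glucose-intolerant HS livers had the lower mean of each of the 7 markers, but no difference passed the test across all probe sets. The question was whether livers of rats with impaired glucose tolerance differ in endothelial transcripts. By limma, 0 of 7 markers and 0% of the 31042 probe sets passed an adjusted p under 0.05 (Benjamini-Hochberg), with 2483 probe sets at an unadjusted p under 0.05. Across all probe sets 56% had the lower mean in intolerant livers. The median difference was -0.10 over the markers and -0.00909 over all probe sets. In whole liver, fewer cells of a type and less RNA per cell cannot be told apart.

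The scavenger receptors came first by role. Stab2 ran from 7.72 over a median of 8.56 to 9.06 in intolerant livers, and from 8.01 over 8.71 to 9.01 in normal livers. The groups overlapped over most of their range, and the 3 lowest arrays were all intolerant. The means were 8.44 ± 0.36 in intolerant and 8.68 ± 0.26 in normal livers (SD, n = 23 each), a difference of -0.23 with a standard error of 0.09 and an adjusted p of 0.502 by limma. Lyve1 averaged 9.73 ± 0.29 in intolerant and 9.83 ± 0.26 in normal livers, a difference of -0.10 (95% interval -0.26 to 0.06). Its second probe set differed by -0.05.

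Among the surface and adhesion genes, Pecam1 ran from 6.19 over 6.75 to 7.34 in intolerant livers, and from 6.55 over 6.94 to 7.57 in normal livers. Both ends of the range were lower in the intolerant group, with broad overlap. Its means were 6.80 ± 0.26 and 6.99 ± 0.23 in intolerant and normal livers, a difference of -0.19 with a standard error of 0.07 and an adjusted p of 0.502 by limma. Emcn averaged 6.66 ± 0.35 in intolerant and 6.70 ± 0.33 in normal livers, and its difference of -0.04 had an interval of -0.23 to 0.16.

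The growth factor receptors and Vwf followed. Kdr averaged 9.68 ± 0.31 in intolerant and 9.82 ± 0.23 in normal livers, a difference of -0.14 (95% interval -0.30 to 0.02, adjusted p = 0.657 by limma). Tek averaged 7.89 ± 0.22 and 7.93 ± 0.16, a difference of -0.04 (interval -0.16 to 0.07). Vwf averaged 6.34 ± 0.28 and 6.43 ± 0.26 in intolerant and normal livers, a difference of -0.09 (interval -0.24 to 0.07). These 3 differences were smaller than the spread within either group.

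**Figure D1:**
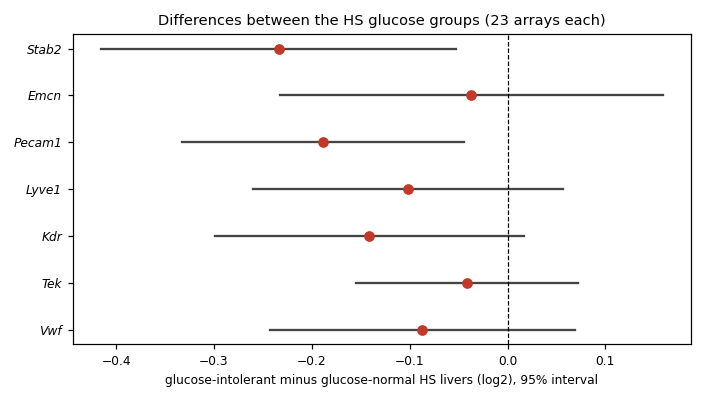
Difference of the mean log2 level, glucose-intolerant minus glucose-normal HS livers (x axis), for 7 endothelial markers (y axis); points are differences and lines 95% intervals from the fit over 46 arrays. All points lie below 0, between -0.23 and -0.04, and the intervals of Stab2 and Pecam1 end below 0 while none of the 7 passed the adjusted test.

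A single intolerant array, number 18, stood apart. It held the lowest value of 46 for 4 of the markers, with Emcn at 5.404, Kdr at 8.71, Lyve1 at 8.94 and Tek at 7.37. Its mean over the markers, 7.34, was the lowest of the HS arrays. Its Kupffer cell and macrophage markers were at the second lowest mean level, 7.84, and its hepatocyte markers averaged 13.47, rank 42 of 46 from the lowest. Without this array the Emcn difference had the other sign (0.02), the other 6 markers kept the lower mean in intolerant livers, and the number called was still 0. Intolerant array 11 held the lowest Pecam1 and Vwf values, 6.19 and 5.92, and intolerant array 31 the lowest Stab2 value. Normal array 6 was low as well, with 4 markers among the 3 lowest arrays, as in intolerant array 11. Its mean over the markers, 7.60, was at rank 3 from the lowest.

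Between inbred strains the markers differed more. A moderated F test over the 6 strains passed for 4 of 7 markers, against 11.9% of all probe sets and 18.3% of those above the median mean. The 4 were Emcn (adjusted p = 0.0017), Lyve1 (0.00215), Vwf (0.00806) and Stab2 (0.0230), all by limma. Tek (0.0842), Kdr (0.123) and Pecam1 (0.244) did not pass. The distance from the lowest to the highest strain mean was 1.70 for Vwf, a ratio of 3.25, and 1.35 for Emcn, 1.25 for Stab2 and 1.22 for Lyve1. It was 0.78 for Pecam1, 0.55 for Tek and 0.46 for Kdr.

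**Figure D2:**
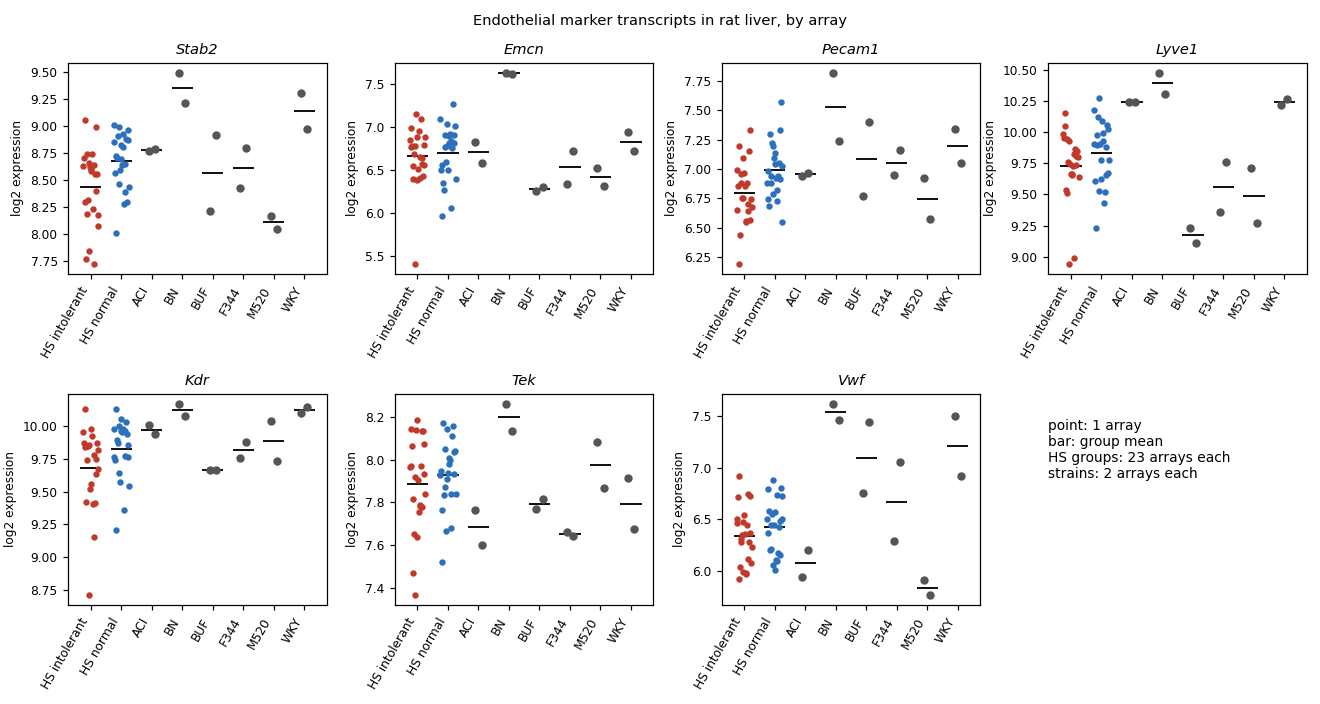
Log2 level (y axis) of 7 endothelial markers by group (x axis), with 1 point per array and a bar at the group mean; HS groups hold 23 arrays each and strains 2 each. The glucose groups overlap in every panel, and both BN arrays of Emcn, at 7.64 and 7.63, lie above all other arrays.

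BN livers carried the highest mean of 6 of the 7 markers. When each strain was set against the mean of the other 5, 5 of 7 markers rose in BN, against 2.6% of all probe sets and 3.74% of those above the median mean, and 0 fell, against 2.08%. Emcn, Vwf, Stab2, Lyve1 and Tek were called. Pecam1 (0.52, adjusted p = 0.152) and Kdr (0.23, adjusted p = 0.279) had a higher mean in BN without passing in limma. Without BN array 1 or without BN array 2, only Emcn stayed called in BN, and the lone array is then assumed to vary like the other strains. The BN count was 2 without ACI array 1 and 3 without ACI array 2, F344 array 1 or M520 array 2.

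In BUF livers 2 of 7 markers fell, Lyve1 and Emcn, against 3.27% of all probe sets, and 0 rose, against 2.49%. Neither call held without BUF array 2, which leaves 1 array for BUF. The differences there were -0.75 for Lyve1 and -0.57 for Emcn, near -0.81 and -0.55 with both arrays. BUF calls among all probe sets were also fewer in that fit. Only Lyve1 stayed called without BUF array 1 or without ACI array 1. In M520 livers 2 of 7 fell, Vwf and Stab2, against 2.76%, and 0 rose, against 1.89%. The M520 count was 0 without either M520 array and 1 without either ACI array. No marker was called in ACI, F344 or WKY, where 2.42%, 1.61% and 4.74% of probe sets were called in either direction. The 6 contrasts share arrays, so a high BN mean lowers the difference of every other strain.

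**Figure D3:**
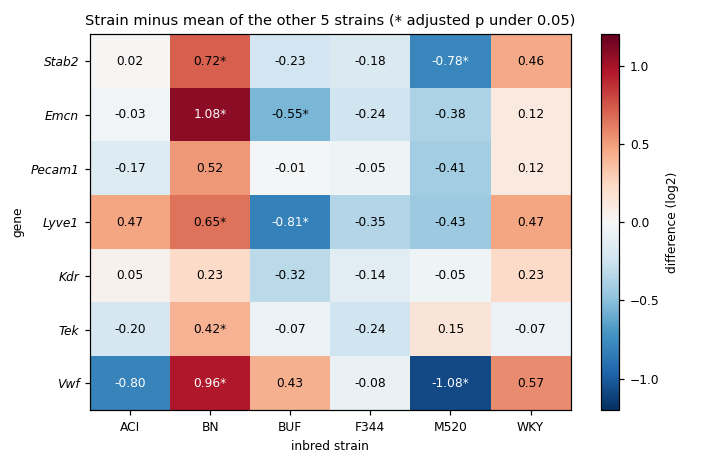
Difference of the mean log2 level of each inbred strain (x axis) from the mean of the other 5 strains for 7 endothelial markers (y axis), as colour and number; an asterisk marks an adjusted p under 0.05. BN has 5 asterisks, all higher, led by Emcn at 1.08, and BUF and M520 have 2 each, all lower.

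Emcn separated BN from every other strain. Its arrays were at 7.64 and 7.63 in BN, 6.94 and 6.72 in WKY, 6.83 and 6.58 in ACI, 6.34 and 6.73 in F344, 6.52 and 6.31 in M520, and 6.26 and 6.30 in BUF. Both BN arrays stood above all other inbred arrays and above the HS range, which ended at 7.27, and both BUF arrays stood below the other inbred arrays. The BN mean of 7.63 was 1.08 above the mean of the other strains, 6.55, with a standard error of 0.12 (2.11-fold, adjusted p = 0.000361 by limma). Leaving out any 1 strain array kept the BN call. BUF differed by -0.55 (6.28 in BUF against 6.82 in the other strains, adjusted p = 0.0277), a call that was lost without BUF array 2 (adjusted p = 0.272), without BUF array 1 (0.0656), and without ACI array 1 (0.0560).

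Lyve1 split the strains into 2 sets. It was at 10.48 and 10.31 in BN, 10.22 and 10.27 in WKY, and 10.24 on both arrays of ACI. It was at 9.36 and 9.76 in F344, 9.71 and 9.27 in M520, and 9.23 and 9.11 in BUF. The arrays of the first 3 strains did not overlap those of the other 3, and the strains at each end stood beyond all other inbred arrays. BUF differed by -0.81 with a standard error of 0.13 (9.17 in BUF against 9.98 in the other strains, 0.569-fold, adjusted p = 0.00612 by limma). Without BUF array 2 the difference was -0.75 with an adjusted p of 0.141. BN differed by 0.65 (10.39 in BN against 9.74 in the other strains, adjusted p = 0.0149 by limma).

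The second Lyve1 probe set gave the same direction in BUF and BN. It differed by -1.22 in BUF (8.72 in BUF against 9.94 in the other strains, adjusted p = 0.000104) and by 0.79 in BN (adjusted p = 0.00141). On this probe set ACI (0.70, adjusted p = 0.00498) and WKY (0.44, adjusted p = 0.0423) were also called higher and M520 lower (-0.55, adjusted p = 0.0173). The first probe set showed the same signs there, at 0.47, 0.47 and -0.43, without a call.

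Stab2, the other hyaluronan receptor, was at 9.50 and 9.22 in BN, 9.31 and 8.98 in WKY, 8.77 and 8.79 in ACI, 8.43 and 8.80 in F344, 8.21 and 8.92 in BUF, and 8.17 and 8.05 in M520. BN and WKY overlapped at the top, and both M520 arrays stood below all other inbred arrays. M520 differed by -0.78 with a standard error of 0.17 (8.11 in M520 against 8.89 in the other strains, 0.581-fold, adjusted p = 0.0260 by limma). BN differed by 0.72 (9.36 in BN against 8.64 in the other strains, adjusted p = 0.0343 by limma). The F test of Stab2 was lost without BN array 1 and without either array of ACI or M520.

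Vwf had the widest range of strain means. It was at 7.62 and 7.47 in BN, 7.50 and 6.92 in WKY, 6.75 and 7.44 in BUF, 6.29 and 7.05 in F344, 5.95 and 6.20 in ACI, and 5.91 and 5.77 in M520. The BN, WKY, BUF and F344 arrays formed a chain of overlaps, ACI lay below them and M520 lowest. M520 differed by -1.08 with a standard error of 0.21 (5.84 in M520 against 6.92 in the other strains, 0.473-fold, adjusted p = 0.0173 by limma). BN differed by 0.96 (7.54 in BN against 6.58 in the other strains, 1.95-fold, adjusted p = 0.0249 by limma). ACI differed by -0.80 without passing (adjusted p = 0.0842). The pooled SD between the 2 arrays of a strain was 0.35, the largest of the 7 markers.

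Tek was at 8.26 and 8.14 in BN, above all other inbred arrays. The other strains lay between 7.60 and 8.09. F344 had the lowest mean (7.65), with arrays at 7.66 and 7.64, and overlapped ACI, whose array 2 at 7.60 was the lowest single value. BN differed by 0.42 with a standard error of 0.10 (8.20 in BN against 7.78 in the other strains, adjusted p = 0.0436 by limma). Leaving out a single array raised the adjusted p of this call to between 0.0528 and 0.394 for 9 of the 12 arrays. Tek was the only marker for which WKY, at 7.91 and 7.67, was not among the top 2 strains together with BN.

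Pecam1 and Kdr gave no strain call. Pecam1 was at 7.82 and 7.23 in BN against 6.57 to 7.40 in the other strains, and its neighbouring strains overlapped except M520 below ACI. Kdr was at 10.17 and 10.07 in BN and 10.10 and 10.15 in WKY, against 9.66 to 10.04 in the other strains. Both BUF arrays of Kdr, each at 9.66, lay below the other inbred arrays, a difference of -0.32 with an adjusted p of 0.0839. The dim second Kdr probe set had the opposite sign in each strain, with no call. It differed by 0.12 in BUF, -0.03 in BN, -0.19 in WKY and 0.27 in M520.

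Set beside the outbred rats, inbred arrays passed the top of the HS range most often for Vwf. The HS arrays of Vwf ended at 6.92, and 6 of the 12 inbred arrays lay above and 2 below their range. For Stab2 3 inbred arrays lay above the HS range, for Emcn, Lyve1 and Kdr 2 each, and for Pecam1 and Tek 1 each. No inbred array lay below the HS range for these 6 genes. The strains and the stock were not tested against each other.

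Across the 46 HS livers most markers varied together. Of the 21 pairs of markers, 14 had a correlation with an adjusted p under 0.05 (permutation test with 100000 resamples, Benjamini-Hochberg over the 21 pairs), and 14 did so by Spearman's rho as well. The 10 pairs among Stab2, Emcn, Lyve1, Kdr and Tek had r from 0.47 to 0.75, and all 10 were called. Kdr with Tek, the 2 receptor kinases, was the closest pair (r = 0.75, rho = 0.70, adjusted p = 4.2e-05 by permutation). An unadjusted p of 1e-05 is the smallest that these resamples can give. Lyve1 with Kdr had r = 0.74 (rho 0.56) and Stab2 with Kdr had r = 0.70 (rho 0.65).

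**Figure D4:**
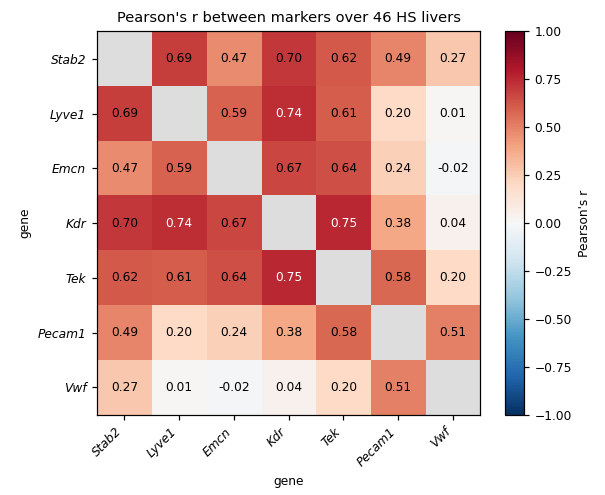
Pearson's r between the log2 levels of each pair of 7 endothelial markers over 46 HS livers, as colour and number, with the genes on both axes. The 10 pairs among Stab2, Lyve1, Emcn, Kdr and Tek lie between 0.47 and 0.75, and Vwf has r from -0.02 to 0.51.

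Vwf stood apart. Its r was 0.51 with Pecam1 (adjusted p = 0.000592 by permutation), 0.27 with Stab2, 0.20 with Tek, 0.04 with Kdr, 0.01 with Lyve1 and -0.02 with Emcn, and only the first was called. Pecam1 was between the sets, with r = 0.58 with Tek, 0.49 with Stab2 and 0.38 with Kdr, all called, and 0.24 with Emcn and 0.20 with Lyve1, not called. The r of a marker with the mean of the other 6 was 0.81 for Tek, 0.75 for Kdr, 0.74 for Stab2, 0.62 for Lyve1, 0.60 for Emcn, 0.50 for Pecam1 and 0.14 for Vwf.

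The pattern was read again within groups and without extreme arrays. Without the 2 arrays farthest from the median of the first gene, the 10 pairs had r from 0.36 to 0.70 and 14 of 21 pairs were again called. Without intolerant array 18 they had r from 0.37 to 0.68, and 14 pairs were called. Within the glucose groups these 10 pairs had r from 0.43 to 0.80 in intolerant and from 0.50 to 0.85 in normal livers. The 6 pairs with Vwf had r from 0.15 to 0.68 in intolerant and from -0.34 to 0.26 in normal livers, a difference that was not tested.

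**Figure D5:**
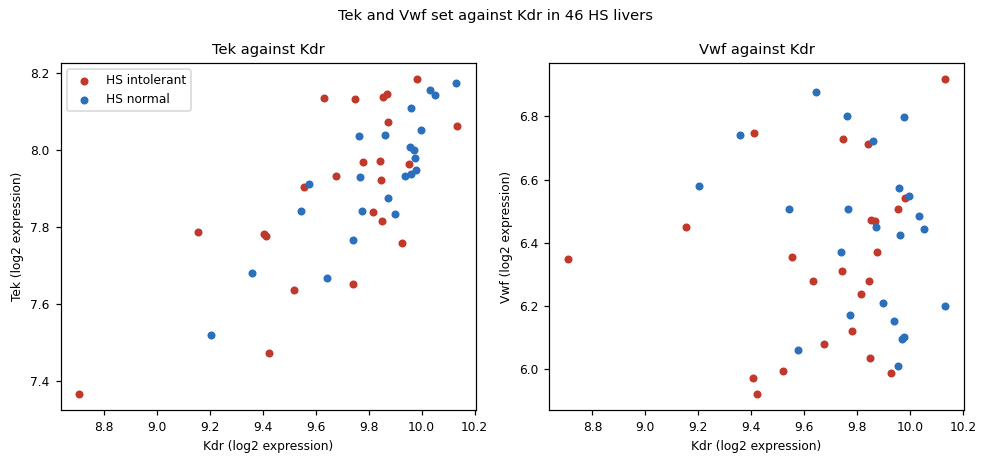
Log2 level of Tek (left panel, y axis) and Vwf (right panel, y axis) against Kdr (x axis) in 46 HS livers, with intolerant and normal rats in different colours. Tek follows Kdr (r = 0.75) in both groups and Vwf does not (r = 0.04); the array at the lower left of the Tek panel, with Kdr at 8.71 and Tek at 7.37, is intolerant array 18.

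The genes most like the markers' mean over the HS livers, with glucose group means subtracted, included known endothelial genes. The closest 10 non-members were Serpinb6a, Gng11, Gstp1 and Ramp2, each at r = 0.83, followed by Dnase1l3 (0.80), Epb41l2 (0.79), Rasgrp3 (0.78), Pde2a (0.77), Elk3 (0.77) and Gimap5 (0.76). The median r over all genes was -0.0166. Ramp2 is the accessory protein of the adrenomedullin receptor, and Elk3 is an ETS-family factor. BN had the highest strain mean for 7 of these 10 genes (70%), against 17.6% of all 14217 genes: Serpinb6a, Gng11, Gstp1, Ramp2, Epb41l2, Rasgrp3 and Pde2a.

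Other genes of endothelial biology were followed as 96 listed genes in 7 groups, of which 86 had a probe set. In the glucose comparison 0 of 86 were called by limma, and 61 (70.9%) had the lower mean in intolerant livers, against 56% of all probe sets. Among strains 23 of 86 (26.7%) passed the F test, against 11.9% of all probe sets and 18.3% of those above the median mean. In BN 9 (10.5%) were higher, against 2.6% of all probe sets, and 2 (2.33%) lower, against 2.08%. In BUF 13 (15.1%) were lower, against 3.27%, and 2 (2.33%) higher, against 2.49%. In M520 2 (2.33%) were higher, against 1.89%, and 3 (3.49%) lower, against 2.76%, which is near the share of all probe sets. In WKY 4 (4.65%) were higher and 2 (2.33%) lower, against 4.74% of all probe sets called in either direction. In F344 0 were higher and 3 (3.49%) lower, against 1.61% in either direction. In ACI 0 were higher and 1 (1.16%) lower, against 2.42% in either direction. The BN count of higher genes was 2 without BN array 1, 3 without BN array 2, 5 without ACI array 2, 6 without ACI array 1, and 7 to 13 without any other strain array. Without BUF array 2, the BUF calls came to 1 higher (Icam1) and 1 lower (Fcgr2b) of 86, against 0.367% and 0.37% of all probe sets in that fit. Without any other strain array the BUF count of lower genes was 8 to 16, with 8 without ACI array 1.

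Among the sinusoidal scavenging genes, all 8 with a probe set had a higher mean in BN. There 2 (25%) were called, against 2.6% of all probe sets, and in BUF 3 (37.5%) were called lower, against 3.27%. Mrc1, the mannose receptor, differed by -1.10 in BUF (7.88 in BUF, adjusted p = 0.00139), and Fcgr2b, the inhibitory Fc receptor of sinusoidal cells, differed by -0.99 in BUF (adjusted p = 0.00153) and by 0.56 in BN (adjusted p = 0.0298), by limma. Colec12, a scavenger receptor with a collectin domain, differed by -0.75 in BUF and 0.75 in WKY. Colec12 was below the median probe set mean (4.78). Hyal2, a hyaluronidase, differed by 0.59 in BN. With BUF array 2 left out, the BUF difference was -1.04 for Fcgr2b (adjusted p = 0.0272 by limma), -0.93 for Mrc1 (0.0524, no longer called) and -0.44 for Colec12 (0.602).

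Among 14 junction and adhesion genes, 3 (21.4%) were called higher in BN, against 2.6% of all probe sets. In BUF 2 (14.3%) were called lower, against 3.27%. Vcam1, which binds leukocyte integrins, averaged 7.84 in BN and 6.26 in BUF, both called against the other strains. Icam1, a leukocyte adhesion molecule also made by hepatocytes, ran the other way, at 1.11 in BUF (9.41 in BUF, adjusted p = 0.000939 by limma), -0.75 in BN and -0.80 in ACI. Mmrn2, an endothelial matrix protein, differed by 0.83 in BN, and Cd93, a C-type lectin receptor of endothelium, by -0.57 in BUF. Without BUF array 2, Icam1 differed by 1.02 in BUF (adjusted p = 0.0351 by limma), and the BUF calls of Vcam1 (-0.69, 0.187) and Cd93 (-0.69, 0.126) were lost.

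Of 10 coagulation and vessel tone genes, 4 (40%) were called lower in BUF, against 3.27% of all probe sets. In BN 2 (20%) were called higher, against 2.6%. Gja4 (connexin 37), a gap junction protein of arterial endothelium, differed by 1.77 in BN (8.26 in BN, adjusted p = 8.43e-05 by limma) and by -0.80 in WKY (adjusted p = 0.0178). Thbd (thrombomodulin), which turns thrombin towards protein C, differed by 0.95 in BN, -0.57 in BUF and -0.60 in F344. Nos3, the endothelial nitric oxide synthase, differed by -0.93 in BUF, and Plat, the tissue plasminogen activator, by -0.76 in BUF and 0.72 in WKY. Nos3 was below the median probe set mean (4.98). None of the 10 was called in BUF by limma without BUF array 2, with Nos3 at -1.06 (adjusted p = 0.0802), Plat at -0.78 (0.0713) and Thbd at -0.50 (0.179).

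Among 14 receptors and co-receptors, 1 (7.14%) was called lower in BN, against 2.08% of all probe sets, and 0 were called higher, against 2.6%. That gene was S1pr1, the sphingosine-1-phosphate receptor (-1.07, adjusted p = 0.00983 by limma). Eng, a co-receptor for transforming growth factor beta, differed by 0.87 in BUF (0.71 without BUF array 2, adjusted p = 0.144, not called), and Ramp2 by -0.83 in M520. Tie1, the orphan partner of Tek, passed the F test (adjusted p = 0.0492) with no strain call, at 0.56 in BN. Of the 8 ligands, Vegfb was the only call, at 0.63 in M520 and -0.60 in F344.

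Of 20 endothelial transcription factors 6 (30%) passed the F test, against 11.9% of all probe sets and 18.3% of those above the median mean. Those with the largest differences were Sox7 (0.80 in WKY) and Ets1 (-0.77 in BUF). Sox17 (0.70 in BN, -0.49 in BUF, -0.58 in F344) and Klf4 (0.68 in BN) came next. Sox7 and Sox17 were below the median probe set mean (4.51 and 4.70). Without BUF array 2 the BUF values were -0.70 for Ets1 (adjusted p = 0.185 by limma) and -0.41 for Sox17 (0.5), neither called. In the group of 12 angiocrine and Notch genes, Bmp2, an iron-regulating signal of sinusoidal cells, passed the F test (adjusted p = 0.0426) with no strain call. It was 1 of 12 (8.33%), against 11.9% of all probe sets.

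Markers of other liver cell types were read on the same arrays. Of 11 Kupffer cell and macrophage markers with a probe set, 10 had a higher mean in BN, with 2 (18.2%) called, against 2.6% of all probe sets. In BUF 3 (27.3%) were called lower, against 3.27%, and in M520 2 (18.2%) lower, against 2.76%. In WKY 1 (9.09%) was called higher, against 4.74% called in either direction. Their mean level had a median of 9.06 in BN, 8.97 in WKY, 8.71 in ACI, 8.53 in F344, 8.30 in BUF and 8.23 in M520. The BN arrays lay at 8.69 and 9.44, and the arrays of the other strains between 8.16 and 9.12. It ran from 7.84 to 8.77 in intolerant and from 7.59 to 9.01 in normal HS livers. Of these 11 genes 10 were above the median probe set mean, Itgam was not (4.04), and Marco, Vsig4, Timd4 and Msr1 of the list had no probe set by the rule. The endothelial markers' own mean level had a median of 8.68 in BN, 8.36 in WKY and 8.06 in ACI. It was 7.99 in F344, 7.95 in BUF and 7.78 in M520, which is the same order of strains. The arrays of F344 (7.83 and 8.14) and BUF (7.81 and 8.09) overlapped ACI and M520, so their place in this order is not resolved. Of 15 stellate and matrix markers 2 (13.3%) were called higher in BN, against 2.6%, and 3 (20%) lower in BUF, against 3.27%. In WKY 2 (13.3%) were called higher, against 4.74% called in either direction. Without BUF array 2 no Kupffer marker was called in BUF, and of the stellate markers only Rgs5, a pericyte gene (-1.34). BUF calls among all probe sets were also fewer in that fit.

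Hepatocyte markers averaged 13.56 in BN and 13.53 in WKY, against 13.31 to 13.36 in the other strains, but the median difference over the 9 genes was 0.03 in BN and 0.05 in WKY. Tat, a glucocorticoid-induced enzyme, differed by 1.08 in BN (called) and 0.52 in WKY (not called). It was the only 1 of the 9 (11.1%) called higher in BN, against 2.6% of all probe sets. Apoa1, the main apolipoprotein of high-density lipoprotein, differed by 0.50 in BN and 0.52 in WKY, neither called. In M520 Apoa1 was called lower (-0.69, adjusted p = 0.0227 by limma), 1 of the 9 (11.1%), against 2.76%. Of 4 red cell markers, only Slc4a1, the red cell anion exchanger, was called. It was lower in BN (-0.75) and WKY (-0.94) and higher in BUF (0.84) and M520 (0.87). Each of these calls was 1 of 4 (25%). Of all probe sets 2.08% were called lower in BN, 2.49% higher in BUF and 1.89% higher in M520. In WKY 4.74% were called in either direction. A higher mean was held by 2 of the 4 in BN, 1 in WKY, 3 in BUF and 2 in M520. Of 6 bile duct markers, Cldn7, an epithelial claudin, was called higher in BUF (1.04) and M520 (1.02) and lower in WKY (-1.25). Cftr was called higher in BN (0.52). Both were below the median probe set mean (4.23 and 3.31). Each of these calls was 1 of 6 (16.7%). Of all probe sets 2.49% were called higher in BUF, 1.89% higher in M520 and 2.6% higher in BN. In WKY the share was 4.74% in either direction. The list was mixed, with a higher mean for 2 of the 6 in BUF, 4 in M520, 4 in WKY and 3 in BN. Lymphocyte markers were dim, with 2 of 9 above the median mean. Ptprc (-0.80) and Il7r (-0.69) were called lower in BUF (22.2%), against 3.27% of all probe sets. The list was mixed there too, since 6 of the 9 had a higher mean in BUF and the median difference was 0.07. No hepatocyte, red cell, bile duct or lymphocyte marker was called in BUF without its array 2, where calls among all probe sets were also fewer. In the HS livers the median r to the endothelial mean was 0.53 over the Kupffer markers and -0.05 over the hepatocyte markers. Over the lists of other endothelial genes it ran from 0.04 for the ligands to 0.48 for the scavenging genes, below the Kupffer value. In the glucose comparison 9 of 11 Kupffer and 12 of 15 stellate markers had the lower mean in intolerant livers, against 56% of all probe sets, and 0 were called. The part of these cell types in the endothelial results was not tested.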

How the data were processed

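The authors deposited log2 expression levels of 31042 probe sets on 58 Affymetrix arrays, and these were used unchanged. Amplification in a dual-cycle reaction and biotin label are given per the labels' protocols, and Partek is named without a version per the submitters' processing notes. The handling of background, summarisation and normalisation was not given in the sources used here. Groups were taken from the sample titles and the series' design text, since the description of the intolerant rats joins normal and intolerance.

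Probe sets were named through the platform annotation, in which 20826 have 1 symbol, 436 several and 9780 none. limma 3.58.1 in R 4.3.3 was fitted on all probe sets, over the 46 HS arrays (44 residual degrees of freedom) and over the 12 inbred arrays (6 residual degrees of freedom), with Benjamini-Hochberg adjustment and a threshold of 0.05. The fits were also run on simulated data with known differences and independent noise in each probe set. The outcome is not given here, and no result above rests on it. Correlations used numpy 2.4.6 and scipy 1.17.1. Of 15 pairs of strains, 3 had replicate deviations correlated over 0.1 (range -0.146 to 0.421), so replicate numbers were not taken to pair arrays.

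The genes named by rule are all members found and the 10 genes most like their mean. In each endothelial list, at most 4 called genes were named by size of difference. Ramp2 falls under both of these last rules. Genes of other cell types, and those nearest to Lyve1 or Vwf alone, were named without a fixed rule. The members, lists and tests were chosen with earlier results of these data known. Promoter sequences are RefSeq's on GRCr8, and the files name no genome build.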

Additional observations from a re-analysis of the deposited data

How the results depend on the processing

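No glucose difference was called for a marker under any alternative run, and only Emcn changed sign, at 0.0199 without intolerant array 18, an alternative chosen after seeing the data. By array weights 12 probe sets and by quantile normalisation 1 were called in that comparison, none of them a marker. The F test over strains passed for 4 markers under all other settings and for 3 to 4 when a strain array was left out. The markers called higher in BN numbered 2 in 1 fit over all 58 arrays (Emcn and Vwf, with Lyve1 at an adjusted p of 0.0573 by limma), and 1 to 5 without single arrays. Those called lower in BUF numbered 1 in the 58-array fit and 1 by array weights (Lyve1 in both), and 0 to 2 without single arrays, with 0 without BUF array 2. Those called lower in M520 numbered 0 to 2 without single arrays, with 0 without either M520 array. In ACI, Vwf was lower in the 58-array fit and by array weights (1 marker each, and 0 to 1 without single arrays), and Lyve1 was higher by array weights and on its second probe set (1 each). In WKY, Lyve1 was higher on its second probe set (1), with 0 to 1 without single arrays. With the replicate block the calls were the same, 4 by the F test, 5 higher in BN, 2 lower in BUF and 2 lower in M520. The whole-table F test called 2130 to 5945 probe sets over the settings against 3700, and the BN contrast 498 to 1857 against 1454. The number of correlated pairs was 14 with quantile normalisation, with group means subtracted and without intolerant array 18. Counts of the other listed genes without single strain arrays, chosen after seeing the data, stand beside those genes. The cause of these changes was not tested, and a strain held 2 arrays.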

Other observations

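Lyve1 and Vwf had different nearest genes over the 46 HS livers with group means subtracted, a look chosen after their values were seen. The genes nearest to Lyve1 were Fcgr2b (r = 0.86), Mrc1 (0.83), Akr1c15 (0.82), a member of the aldo-keto reductase family, and Tspan7 (0.78), a tetraspanin. BUF had the lowest strain mean for 8 of the 10 nearest genes, against 18.4% of all genes. M520 had it for the other 2, Tinagl1 and Lrg1, against 22.4% of all genes. The BUF means were 8.39 for Fcgr2b, 7.88 for Mrc1, 5.82 for Akr1c15 and 9.14 for Tspan7. The genes nearest to Vwf were Trim3 (0.70), Zyx (0.68), an actin-associated focal adhesion protein, and Slc44a2 (0.68), a choline transporter-like protein. Among the 10 genes nearest to Vwf, ACI had the lowest strain mean for 7, against 16.9% of all genes. M520 had it for 2, against 22.4%, and BN for 1, against 14%. For Vwf itself M520 was lowest and ACI next.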
